A study of Mus musculus with 9 samples.

Results

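BiP, encoded by Hspa5, and 9 partners of the endoplasmic reticulum (ER) were followed in plasma cells from mouse spleen. The 10 genes were Hspa5, Hsp90b1, Hyou1, Sil1, Dnajb9, Dnajb11, Dnajc3, Sdf2l1, Creld2 and Manf. They were taken by symbol from the count table, all 10 were found among its 46958 genes, and all 10 were among the 14199 genes that passed the filter on low counts. RNA was sequenced from CD138+ cells isolated with magnetic beads, 1 library per spleen, from 3 mice of each of 3 genotypes. All 9 mice were 3 months old, non-immunized and of a mixed C57/BL6x129/SVxBALB/c background. The genotypes were WT (wild type), DH-LMP2A and kFRA, the last also labelled LCDD for light chain deposition disease. By its title, the series asks whether a free light chain of that disease harms the plasma cells that make it. DH-LMP2A is known as a mouse in which the latent membrane protein LMP2A of Epstein-Barr virus is expressed from the immunoglobulin heavy-chain locus, so that B cells form without a heavy chain. The labels describe neither allele and do not say whether kFRA mice also carry DH-LMP2A, and transcripts of heavy-chain constant regions were scarce in both genotypes. The stated purity was above 80%, so other spleen cells were present in the isolated fraction.

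BiP is the Hsp70 chaperone of the ER lumen, and it is named after its binding to immunoglobulin heavy chains. It holds heavy chains that have not yet paired with a light chain and also binds some light chains. J-domain proteins such as those encoded by Dnajb9, Dnajb11 and Dnajc3 bring substrates to BiP and stimulate its ATPase, and the nucleotide exchange factors encoded by Hyou1 and Sil1 release the substrate again. GRP94, encoded by Hsp90b1, is the Hsp90 of the same compartment. Many of these genes are targets of the unfolded protein response, through the transcription factors ATF6 and XBP1.

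The ATF6 response is read from a promoter element, the ER stress element (ERSE), which reads CCAAT, then 9 bases of any kind, then CCACG, so the promoters that hold it are shown beside the expression values of their genes. RefSeq promoters of the build GRCm38.p6 were searched on both strands over the 250 bases before the RefSeq start of the gene, and 7 of the 10 genes had a promoter in the table. An ERSE was found in 4 of those 7, namely Hspa5, Hsp90b1, Dnajc3 and Creld2, and in 37 of all 32851 promoters searched, or 0.1126%. The element was defined in part on the promoters of BiP and GRP94, so its presence there was known, and a match is a description of letters, not a measurement of binding. The fixed bases of each ERSE are in capitals. The windows are chr2:34771840-34772089 on the plus strand for Hspa5, chr10:86705445-86705694 on the minus strand for Hsp90b1, chr14:118937682-118937931 on the plus strand for Dnajc3 and chr15:88819396-88819645 on the plus strand for Creld2.
Hspa5: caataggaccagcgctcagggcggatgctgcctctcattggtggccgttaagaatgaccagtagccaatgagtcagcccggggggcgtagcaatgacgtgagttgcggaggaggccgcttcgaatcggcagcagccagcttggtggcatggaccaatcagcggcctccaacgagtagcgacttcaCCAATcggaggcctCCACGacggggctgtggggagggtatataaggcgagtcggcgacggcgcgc
Hsp90b1: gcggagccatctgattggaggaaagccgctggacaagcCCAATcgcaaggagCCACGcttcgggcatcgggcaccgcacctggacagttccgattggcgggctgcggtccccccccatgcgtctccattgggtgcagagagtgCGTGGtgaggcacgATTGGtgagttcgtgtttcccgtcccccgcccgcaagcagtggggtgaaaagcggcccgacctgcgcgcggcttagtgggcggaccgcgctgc
Dnajc3: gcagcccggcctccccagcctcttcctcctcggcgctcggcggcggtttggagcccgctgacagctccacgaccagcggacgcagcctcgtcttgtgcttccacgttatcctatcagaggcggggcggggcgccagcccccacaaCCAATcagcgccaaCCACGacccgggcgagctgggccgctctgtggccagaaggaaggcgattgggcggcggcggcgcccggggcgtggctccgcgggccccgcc
Creld2: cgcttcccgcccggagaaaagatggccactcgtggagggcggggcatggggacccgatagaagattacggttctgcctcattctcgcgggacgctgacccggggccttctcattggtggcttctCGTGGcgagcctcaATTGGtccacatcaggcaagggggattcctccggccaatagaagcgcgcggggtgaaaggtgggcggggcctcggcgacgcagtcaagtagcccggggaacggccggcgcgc
The RefSeq starts are not all those of the count table: the Hspa5 window overlaps the first 120 bases of the gene span given below, which hold the element, and the Hsp90b1 window overlaps the first 65 bases of its span, which hold neither element. Distances are from the RefSeq start. The Hspa5 element lay 65 to 47 bases before the start, and the Dnajc3 element 105 to 87 bases before it, both on the strand of the gene. Hsp90b1 held 1 element on its own strand, 212 to 194 bases before the start, and 1 on the opposite strand, 107 to 89 bases before it. The Creld2 element was on the opposite strand, 126 to 108 bases before the start. Neither ERSE-II (ATTGG, any base, then CCACG) nor the UPRE (TGACGTGG), a pair of related elements found in 0.03044% and 0.5631% of all promoters, was found in the 7 windows.

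Total counts per library ranged from 15449026 to 21558128, and each of the 10 genes was far above the floor of 3 counts (0.139 to 0.194 CPM, the count relative to the library's total on a common scale). Levels below are CPM after TMM scaling (edgeR), which sets the typical gene equal between libraries. All 8 plasma cell markers were present in every library, among them Sdc1 (CD138) at 302 to 692.5 CPM. Their sum, mostly Jchain, was 18210 to 23350 CPM in WT, 31070 to 43460 in DH-LMP2A and 18530 to 29460 in kFRA, so DH-LMP2A stood above both without overlap. Tnfrsf17 went the other way, with 41.3 to 59.5 CPM in WT, 15.6 to 29.0 in DH-LMP2A and 12.4 to 19.2 in kFRA. Markers of other spleen cells were also present. Over 8 markers each, the summed levels in WT, DH-LMP2A and kFRA were 37.3 to 326, 2422 to 12850 and 1087 to 2578 CPM for erythroid cells and 1930 to 3297, 495 to 1484 and 833 to 1452 CPM for myeloid cells. For B cells they were 821.5 to 1061, 1347 to 1801 and 760.0 to 1212 CPM, and for T cells 47.1 to 105, 42.8 to 86.5 and 33.1 to 55.4 CPM. No marker of these lists was at 0 in every library of a genotype. The erythroid sums of WT were below, and its myeloid sums above, those of both other genotypes without overlap, so these cell types moved with every difference from WT below and cannot be told apart from the genotype. The B cell sums of DH-LMP2A lay above those of WT and kFRA without overlap, but the 8 markers did not move as 1. Cd79a was the largest part of the sum, at 850 to 1117 CPM in DH-LMP2A and 344 to 469 CPM in WT. Against WT, 3 markers were higher and 1 was lower in DH-LMP2A at an edgeR adjusted p under 0.05. Cd22 stood at 5.75 to 28.7 CPM in DH-LMP2A and 61.3 to 128 CPM in WT. In kFRA, Cd22 stood at 5.95 to 9.04 CPM and Cd79a at 475 to 905 CPM. Against WT, 0 of the 8 markers were higher and 4 were lower in kFRA (median log2 fold change -0.798), although the sums overlapped. Against DH-LMP2A, 0 were higher and 2 were lower in kFRA (median -0.806). Over all genes 6.68% rose and 11.1% fell in kFRA against WT, and 1.73% and 3.3% against DH-LMP2A. The B cell content thus cannot be told apart from the genotype in any of the 3 comparisons.

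BiP and most of these 9 partners rose in kFRA cells against WT. 8 of the 10 genes passed at an adjusted p under 0.05 (edgeR, quasi-likelihood test, adjusted over 14199 genes), by 1.76 to 2.54-fold, and none fell (0 lower also at an unadjusted p under 0.05, and 9 higher). Over all genes tested 6.68% rose and 11.1% fell in that comparison. The median log2 fold change of the 10 genes was 0.87, beside -0.038 for all genes, and in 7 of the 10 every kFRA library lay above every WT library, as in 14.2% of all genes (20.2% lay below). The other 3, Dnajb9, Dnajb11 and Manf, overlapped. In bulk RNA a change in the number of cells of a type and a change in RNA per cell cannot be told apart. P-values measure the spread between libraries of different mice.

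In DH-LMP2A cells against WT, Hsp90b1, Sil1 and Sdf2l1 rose (3 of 10, beside 5.07% of all genes) and none of the 10 fell (7.3% of all genes). In these 3 and in Dnajb11 every DH-LMP2A library lay above every WT library, as in 17.5% of all genes (19.1% lay below). The median log2 fold change of the 10 genes was 0.445, beside -0.008 for all genes.

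None of the 10 genes passed the threshold between kFRA and DH-LMP2A cells with edgeR, where 1.73% of all genes rose and 3.3% fell. At an unadjusted p under 0.05, 6 were higher in kFRA (Hspa5, Hyou1, Dnajb9, Dnajc3, Creld2 and Manf) and Sil1 was lower, beside 10.3% and 12.1% of all genes. By the Wald test of DESeq2, Hspa5, Hyou1 and Creld2 were higher and Sil1 was lower at an adjusted p under 0.05, beside 4.16% and 5.74% of all genes. The libraries did not overlap for 5 genes higher in kFRA (Hspa5, Hyou1, Dnajb9, Dnajc3 and Creld2; 11.6% of all genes) and for Sil1, lower in kFRA (13.9% of all genes). The median log2 fold change of the 10 genes was 0.53, beside -0.005 for all genes. The 3 comparisons share libraries, since each genotype enters 2 of them.

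**Figure D1:**
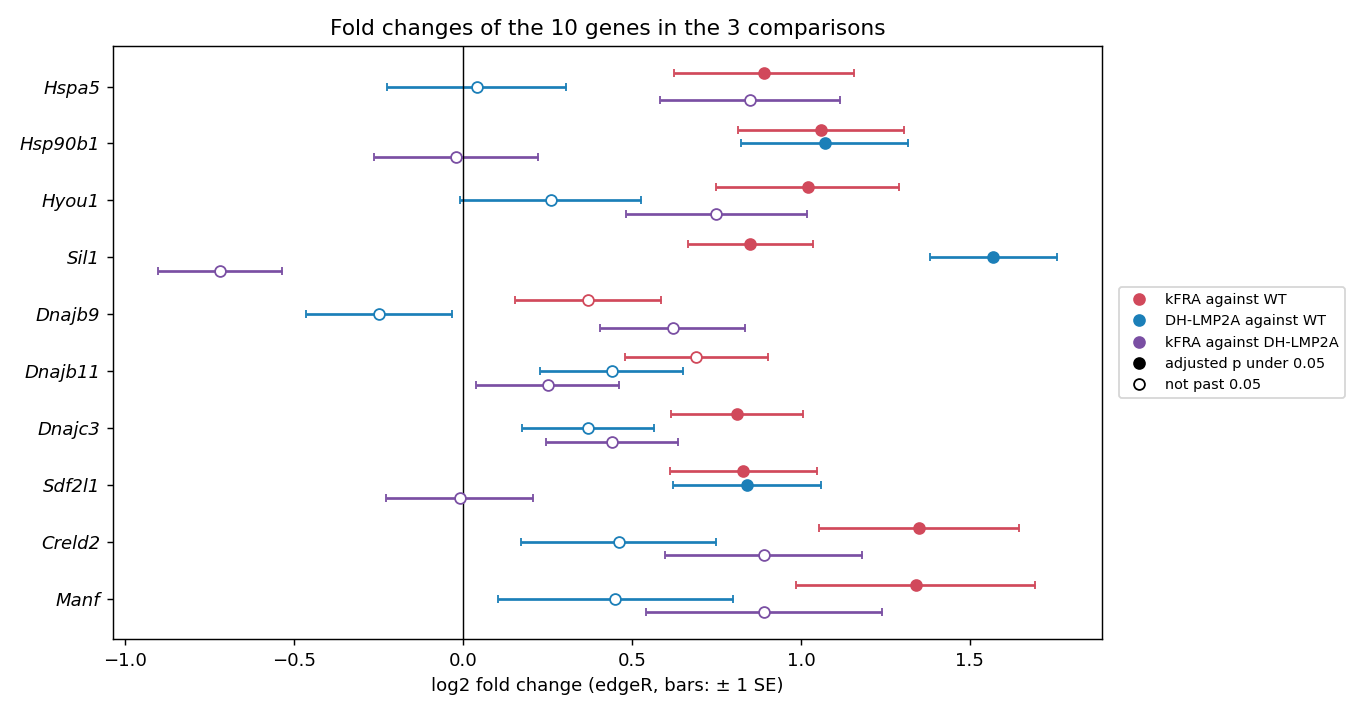
Log2 fold change (x axis, edgeR, bars ± 1 SE) of each of the 10 genes (y axis) in the 3 comparisons, with filled points where the adjusted p was under 0.05. Hsp90b1, Sil1 and Sdf2l1 are filled both for kFRA against WT and for DH-LMP2A against WT, whereas Hspa5, Hyou1, Dnajc3, Creld2 and Manf are filled for kFRA against WT alone.

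Hspa5 (chr2:34771970-34777547, plus strand) stood at 1981, 1689 and 3060 CPM in WT 1, 2 and 3. It stood at 2581, 2008 and 2336 CPM in DH-LMP2A 1, 2 and 3, and at 4698, 3409 and 4345 CPM in kFRA 1, 2 and 3. All 3 kFRA libraries were above all 6 others, and the WT and DH-LMP2A libraries overlapped. The kFRA mean was 4151 ± 666 CPM, and those of WT and DH-LMP2A were 2244 ± 722 and 2308 ± 287 CPM (SD, n = 3 each). The log2 fold change of kFRA was 0.89 against WT (SE 0.267, edgeR adjusted p = 0.0482) and 0.85 against DH-LMP2A (SE 0.267, edgeR adjusted p = 0.111, DESeq2 adjusted p = 0.00972). DH-LMP2A and WT differed by 0.04 (SE 0.265, edgeR adjusted p = 0.949). The call against WT held in 2 of the 9 fits that each left out 1 library. Against DH-LMP2A, Hspa5 passed in the edgeR fit without kFRA 2, at an adjusted p of 0.0387, a fit in which 3299 of 14518 genes tested passed, beside 713 of 14199 with all libraries.

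Hsp90b1, encoding GRP94, which folds Toll-like receptors and integrins among others, separated the genotypes in another way (chr10:86690209-86705509, minus strand). It stood at 3869, 3792 and 4942 CPM in WT, at 10710, 7801 and 8040 CPM in DH-LMP2A, and at 9668, 8206 and 8387 CPM in kFRA, each in the order of mouse 1, 2 and 3. DH-LMP2A and kFRA overlapped, and both lay above all WT libraries. The means were 4201 ± 642.5, 8850 ± 1614 and 8754 ± 797 CPM (SD, n = 3). The gene rose 2.11-fold in DH-LMP2A (log2 1.07, SE 0.246, edgeR adjusted p = 0.021) and 2.08-fold in kFRA (log2 1.06, SE 0.246, edgeR adjusted p = 0.0183). The difference between them was -0.02 (SE 0.243, edgeR adjusted p = 0.981). Of the exon bases of Hsp90b1, 632 are shared with a pseudogene on the opposite strand and 2 genes on its own, and the strand setting of the counting is not given, so its level is uncertain to that extent.

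**Figure D2:**
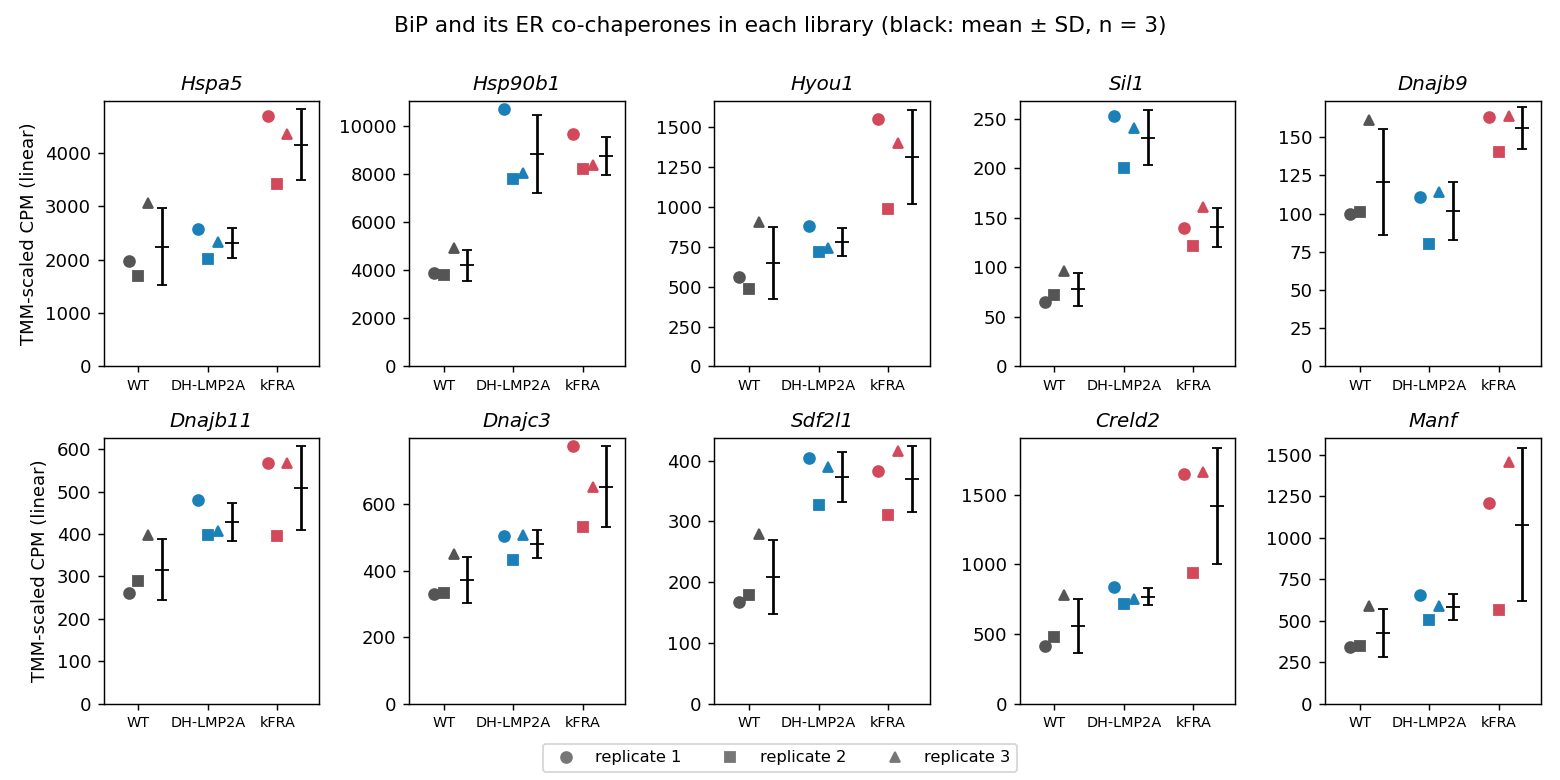
TMM-scaled CPM (y axis, linear from 0, own scale per panel) of each gene in the 3 libraries of WT, DH-LMP2A and kFRA, with symbols for the mouse number and black bars for the mean ± SD. Hspa5 and Hyou1 are high in kFRA alone, Hsp90b1 and Sdf2l1 stand at like levels in DH-LMP2A and kFRA, and Sil1 is highest in DH-LMP2A.

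The 2 nucleotide exchange factors had values of opposite sign between kFRA and DH-LMP2A. Hyou1 encodes GRP170, a large relative of Hsp70 that releases substrate from BiP (chr9:44379490-44392369, plus strand). It stood at 561, 483 and 904.5 CPM in WT 1, 2 and 3, at 879, 716 and 744 CPM in DH-LMP2A, and at 1554, 985 and 1404 CPM in kFRA. As with Hspa5, the kFRA libraries were above all others and those of WT and DH-LMP2A overlapped. From WT to kFRA it rose 2.02-fold (log2 1.02, SE 0.271, edgeR adjusted p = 0.0312). The log2 difference was 0.75 between kFRA and DH-LMP2A (SE 0.269, edgeR adjusted p = 0.149, DESeq2 adjusted p = 0.0476) and 0.26 between DH-LMP2A and WT (SE 0.268, edgeR adjusted p = 0.607).

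Sil1, the smaller exchange factor (chr18:35266400-35498925), was lowest in WT, at 64.9, 72.4 and 96.7 CPM in mice 1, 2 and 3. It was highest in DH-LMP2A, at 252.5, 199.9 and 241 CPM, and stood between them in kFRA, at 139, 122 and 161 CPM. No genotype overlapped another. The gene rose 2.96-fold in DH-LMP2A against WT (log2 1.57, SE 0.188, edgeR adjusted p = 0.000832) and 1.8-fold in kFRA against WT (log2 0.85, SE 0.185, edgeR adjusted p = 0.0141). The first of these calls held in all 9 fits that left out 1 library, and the second in 8 of 9. In kFRA against DH-LMP2A the log2 difference was -0.72 (SE 0.184, edgeR adjusted p = 0.0597, DESeq2 adjusted p = 0.0166). This difference passed in edgeR with library size alone (adjusted p = 0.0101), without the filter on low counts (0.0465) and without WT 3 (0.0394). An antisense gene shares 84 of its exon bases.

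Among the J-domain genes, Dnajc3 passed the threshold in kFRA and Dnajb9 and Dnajb11 passed in no comparison. Dnajc3 encodes p58IPK, which binds unfolded proteins in the lumen (chr14:118937932-118981702). It stood at 330.1, 333 and 451 CPM in WT 1, 2 and 3, at 503, 431 and 507 CPM in DH-LMP2A, and at 776, 532 and 651 CPM in kFRA, with every kFRA library above all others. Against WT it rose 1.76-fold in kFRA (log2 0.81, SE 0.196, edgeR adjusted p = 0.0214). The values were 0.44 for kFRA against DH-LMP2A (SE 0.196, edgeR adjusted p = 0.22) and 0.37 for DH-LMP2A against WT (SE 0.196, edgeR adjusted p = 0.271).

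Dnajb9 encodes ERdj4, which binds misfolded chains and attenuates the stress sensor IRE1 (chr12:44205897-44210068). It stood at 99.9, 101 and 161 CPM in WT 1, 2 and 3, at 111, 79.8 and 114 CPM in DH-LMP2A, and at 163, 140.2 and 164 CPM in kFRA. WT 3 reached the level of the kFRA libraries, whereas all DH-LMP2A libraries were below them. The log2 differences were 0.37 for kFRA against WT (SE 0.216, edgeR adjusted p = 0.247), 0.62 for kFRA against DH-LMP2A (SE 0.216, edgeR adjusted p = 0.143) and -0.25 for DH-LMP2A against WT (SE 0.216, edgeR adjusted p = 0.532). It was the only 1 of the 10 genes with a lower mean in DH-LMP2A than in WT.

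Dnajb11 encodes ERdj3, a partner of BiP that binds unassembled immunoglobulin heavy chains (chr16:22857845-22879634). It stood at 262, 289 and 397 CPM in WT 1, 2 and 3, at 481, 398 and 408 CPM in DH-LMP2A, and at 567, 394 and 567 CPM in kFRA. kFRA 2 lay just below WT 3 and the lowest DH-LMP2A library, so kFRA overlapped both. The log2 differences were 0.69 for kFRA against WT (SE 0.212, edgeR adjusted p = 0.0522), 0.44 for DH-LMP2A against WT (SE 0.212, edgeR adjusted p = 0.223) and 0.25 for kFRA against DH-LMP2A (SE 0.211, edgeR adjusted p = 0.511).

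Sdf2l1 forms a complex with ERdj3 in the lumen (chr16:17130138-17132383, minus strand), and it followed Hsp90b1 rather than Hspa5. It stood at 167, 179.5 and 279 CPM in WT 1, 2 and 3, at 404, 327 and 389 CPM in DH-LMP2A, and at 383, 311 and 416 CPM in kFRA. Both DH-LMP2A and kFRA were above all WT libraries and overlapped each other. Its rise over WT was 1.79-fold in DH-LMP2A (log2 0.84, SE 0.219, edgeR adjusted p = 0.0356) and 1.77-fold in kFRA (log2 0.83, SE 0.219, edgeR adjusted p = 0.0309). The difference between them was -0.01 (SE 0.218, edgeR adjusted p = 0.981).

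Creld2 and Manf, which encode small ER proteins induced by ER stress, had the highest fold changes of the 10 genes in kFRA against WT. Creld2 (chr15:88819646-88826681, plus strand) stood at 415, 480.2 and 779 CPM in WT 1, 2 and 3, at 835, 714 and 751 CPM in DH-LMP2A, and at 1651, 939 and 1665 CPM in kFRA. kFRA 2 was nearer to the DH-LMP2A libraries than to the other kFRA libraries, though above them all. The gene rose 2.54-fold in kFRA against WT (log2 1.35, SE 0.295, edgeR adjusted p = 0.0145). Against DH-LMP2A the log2 difference of kFRA was 0.89 (SE 0.292, edgeR adjusted p = 0.125, DESeq2 adjusted p = 0.0264), and DH-LMP2A and WT differed by 0.46 (SE 0.29, edgeR adjusted p = 0.367).

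Manf encodes a protein that binds BiP and is also secreted (chr9:106838312-106891979). It stood at 339, 348 and 589.5 CPM in WT 1, 2 and 3, at 657, 503 and 588 CPM in DH-LMP2A, and at 1209, 564 and 1458 CPM in kFRA. kFRA 2 lay inside the DH-LMP2A range and below WT 3, while kFRA 1 and kFRA 3 were above all 6 libraries of the other genotypes. From WT to kFRA it rose 2.53-fold (log2 1.34, SE 0.353, edgeR adjusted p = 0.0302). The log2 differences were 0.89 for kFRA against DH-LMP2A (SE 0.35, edgeR adjusted p = 0.181) and 0.45 for DH-LMP2A against WT (SE 0.348, edgeR adjusted p = 0.468). Other genes share 326 of its exon bases, some on the opposite strand, so its level is uncertain to that extent.

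The partners did not keep a fixed proportion to BiP. Ratios of counts within a library do not depend on the scaling, and they are given as counts per 100 counts of Hspa5 (mean ± SD, n = 3). Sil1 stood at 10.02 ± 0.269 in DH-LMP2A, 3.57 ± 0.62 in WT and 3.41 ± 0.392 in kFRA. Per mouse, DH-LMP2A had 9.78, 9.95 and 10.3, WT had 3.27, 4.29 and 3.16, and kFRA had 2.97, 3.57 and 3.7. DH-LMP2A thus held more Sil1 per BiP transcript than either other genotype, and WT and kFRA overlapped. Sdf2l1 showed the same order, with 16.2 ± 0.499 in DH-LMP2A, 9.39 ± 1.12 in WT and 8.94 ± 0.721 in kFRA. Hsp90b1 was likewise highest in DH-LMP2A, with 382.5 ± 35.8, against 194 ± 31.5 in WT and 213 ± 24.7 in kFRA.

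The mean of Hyou1 differed least between genotypes, with 33.9 ± 1.9 per 100 Hspa5 counts in DH-LMP2A, 28.8 ± 0.647 in WT and 31.4 ± 2.23 in kFRA. Dnajb9 was the gene whose ratio was highest in WT, with 5.43 ± 0.498, against 4.38 ± 0.467 in DH-LMP2A and 3.79 ± 0.318 in kFRA. Manf varied most among kFRA mice, with 25.8, 16.6 and 33.5 in kFRA 1, 2 and 3 around a mean of 25.3 ± 8.51. In DH-LMP2A the same ratio was 25.2 ± 0.229.

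Between DH-LMP2A and WT, 7 of the 9 ratios were higher in every DH-LMP2A library (Hsp90b1, Hyou1, Sil1, Dnajb11, Sdf2l1, Creld2 and Manf), as were those of 6.92% of all genes tested. Dnajb9 was lower in every one, as were 9.48% of all genes. Between kFRA and WT, Dnajb9 alone of the 9 did not overlap, being lower in kFRA, whereas 52.8% of all genes were lower there relative to Hspa5. Between kFRA and DH-LMP2A, 5 of 9 were lower without overlap (Hsp90b1, Sil1, Dnajb11, Dnajc3 and Sdf2l1), which is no larger a share than the 65.7% of all genes. The exact 2-sided permutation test gave p = 0.1 for each ratio without overlap, the smallest that 3 against 3 libraries allow, or 0.193 after Benjamini-Hochberg adjustment over 27 ratios, so no ratio could pass 0.05.

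**Figure D3:**
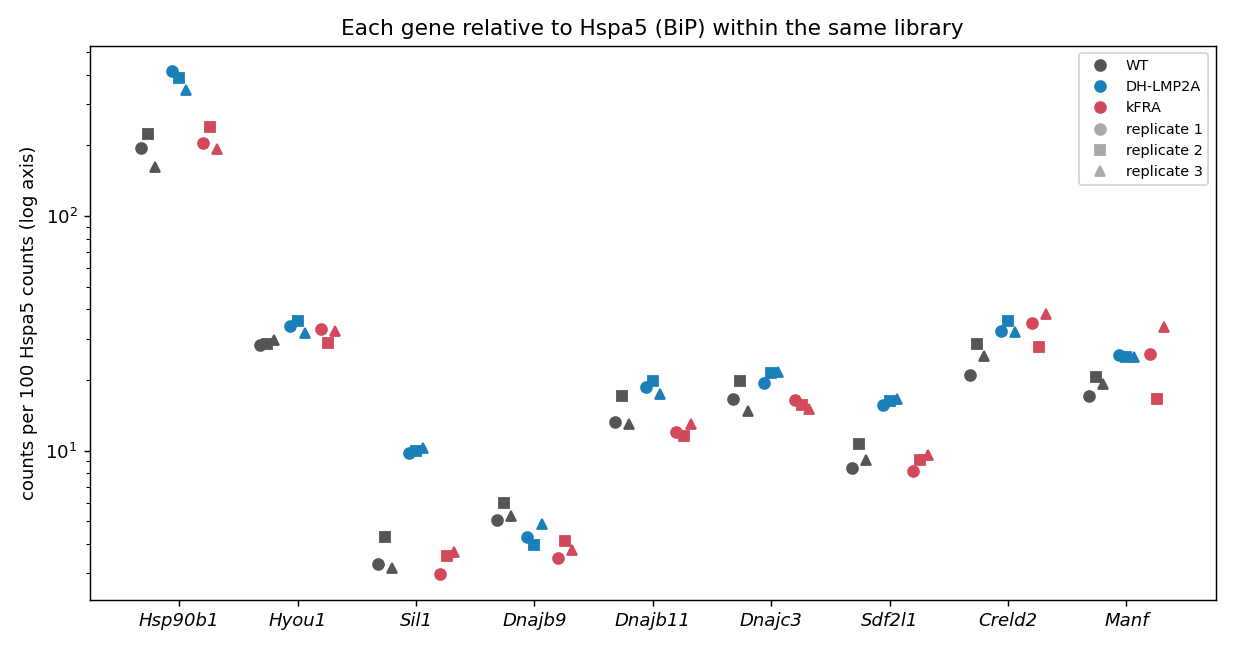
Counts of each partner per 100 counts of Hspa5 in the same library (y axis, log scale) for the 9 partners, with colour for the genotype and symbol for the mouse number. The DH-LMP2A points of Hsp90b1, Sil1 and Sdf2l1 lie above those of both other genotypes, and the Manf points of kFRA spread from 16.6 to 33.5.

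Together the 10 genes made up 0.781%, 0.707% and 0.908% of all counts in WT 1, 2 and 3. They made up 1.99%, 1.54% and 1.48% in DH-LMP2A and 1.97%, 1.91% and 1.72% in kFRA, and each 95% Wilson interval, which covers counting error only, was narrower than these differences between mice. The share was above that of WT in all 6 other libraries, and DH-LMP2A and kFRA overlapped. It depends on the immunoglobulin counts in the total. Of the counts other than immunoglobulin, the 10 genes made up 1.38%, 1.37% and 2.04% in WT 1, 2 and 3. They made up 2.74%, 2.115% and 2.2% in DH-LMP2A and 3.52%, 2.69% and 3.15% in kFRA, so WT 3 came close to DH-LMP2A. Most of the 10 genes' counts were those of BiP and GRP94, which took 70.5% of the sum in WT, 69.9% in kFRA and 74.8% in DH-LMP2A.

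The immunoglobulin load beside which these chaperones stood differed by genotype. Heavy-chain constant regions took 24.4 ± 2.62% of all counts in WT, beside 1.12 ± 0.033% in DH-LMP2A and 0.913 ± 0.0477% in kFRA (SD, n = 3). The kappa constant region took 10.9 ± 1.58%, 14.1 ± 1.75% and 36.5 ± 8.78%. Set against all constant-region counts, Hspa5 stood at 6.0, 4.34 and 5.93 per 1000 in WT 1, 2 and 3, at 17.7, 13.8 and 12.3 in DH-LMP2A, and at 10.3, 14.7 and 8.71 in kFRA. By this measure DH-LMP2A held 14.6 ± 2.78 and kFRA 11.2 ± 3.1 per 1000, with overlap, and both were above WT with 5.43 ± 0.941. For Hsp90b1 the order was DH-LMP2A with 56.5 ± 15.7, kFRA with 24.4 ± 9.69 and WT with 10.3 ± 1.19 per 1000. Constant-region genes have similar copies, so the split among them is uncertain.

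**Figure D4:**
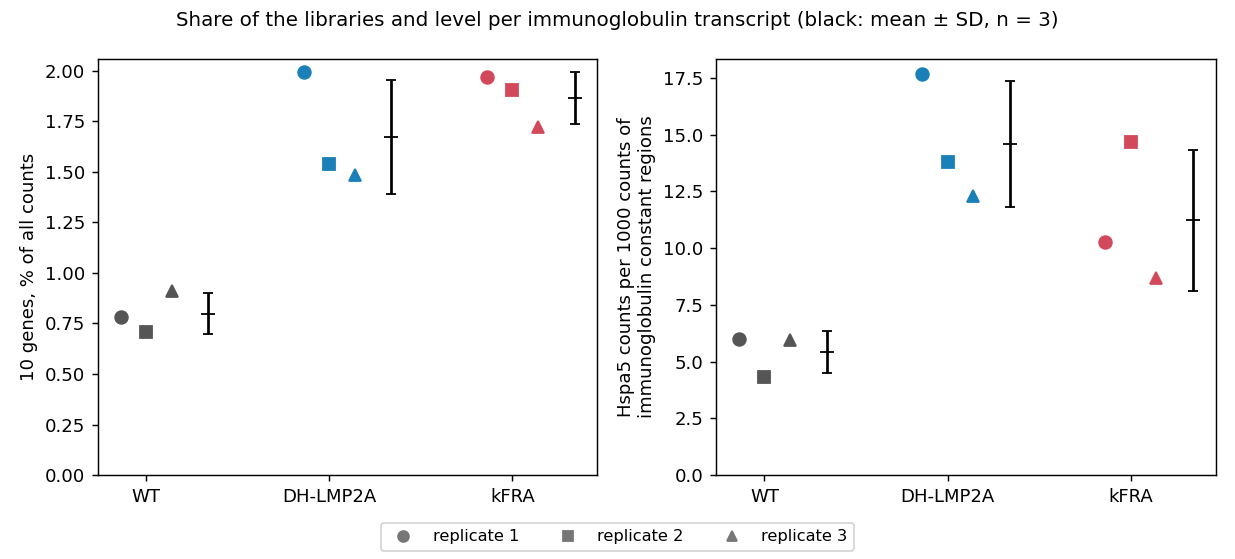
Left, share of all counts taken by the 10 genes (y axis, %), and right, Hspa5 counts per 1000 counts of immunoglobulin constant regions, in each library of WT, DH-LMP2A and kFRA, with black bars for the mean ± SD. On both axes, which start at 0, every DH-LMP2A and kFRA library lies above every WT library.

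Mice of 1 genotype differed, and after TMM scaling the 10 genes moved together in most libraries. All 10 lay above the mean of their genotype in WT 3 and DH-LMP2A 1. All 10 lay below it in WT 1, WT 2, DH-LMP2A 2 and kFRA 2, and most lay above it in kFRA 1 and kFRA 3. In DH-LMP2A 3 they lay on both sides of the mean of their genotype, with a log2 deviation of 0.19 for Dnajb9 and -0.12 for Hsp90b1. WT 3 was the highest WT library for 10 of 10 genes (33.9% of all genes tested), also without scaling (13.1% of all genes). kFRA 2 was the lowest kFRA library for 10 of 10 genes (37.8% of all genes), but without scaling only for 4, Hyou1, Dnajb11, Creld2 and Manf (14.6% of all genes). Without scaling kFRA 2 was the highest kFRA library for Hsp90b1, Sil1, Dnajb9 and Sdf2l1, so its joint fall depended on the scaling. Its log2 distance from the mean of the other kFRA libraries ran from -0.13 for Hsp90b1 through -0.41 for Hspa5, -0.58 for Hyou1 and -0.82 for Creld2 to -1.23 for Manf. Immunoglobulin genes took 29.2% of its counts, beside 44.0% and 45.4% in kFRA 1 and kFRA 3. kFRA 2 was also the only kFRA library with a high level of Xist, the RNA of the inactive X chromosome, at 734 CPM beside 1.3 and 3.14 CPM. The part of these differences in its chaperone levels was not tested.

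Xist was high in DH-LMP2A 1 and 2 (924 and 882 CPM) and in WT 1 and 3 (783 and 495 CPM), and low in DH-LMP2A 3 and WT 2 (4.49 and 0.459 CPM). Among the libraries with high Xist, Hspa5 stood at 3409 CPM in kFRA, at 2581 and 2008 CPM in the pair from DH-LMP2A, and at 1981 and 3060 CPM in the pair from WT. Among those with low Xist, kFRA had 4698 and 4345 CPM, DH-LMP2A had 2336 CPM and WT had 1689 CPM. For Manf, kFRA 2 (564 CPM) lay below DH-LMP2A 1 (657 CPM) and WT 3 (589.5 CPM) among the libraries with high Xist. With 1 or 2 libraries of a genotype on each side, no test was made within them.

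Compared per kilobase of merged exons, Hsp90b1 was the most abundant of the 10 genes in 9 of 9 libraries, with means of 1042, 2195 and 2171 CPM per kb in WT, DH-LMP2A and kFRA. Hspa5 came next in WT with 530.5 CPM per kb, followed by Creld2 with 409, and their ranges over mice overlapped. In DH-LMP2A and kFRA the means of Creld2 (562 and 1040 CPM per kb) were close to those of Hspa5 (546 and 981.5 CPM per kb), again with overlap. In WT the order went on with Sdf2l1, Manf, Dnajb11, Hyou1, Dnajc3, Dnajb9 and Sil1, each overlapping the next in its range over mice. Within single libraries the WT order, from Hsp90b1 on, was the same in all 3, except that Hyou1 stood above Dnajb11 in WT 3. In DH-LMP2A, Sil1 rose to a mean of 136 CPM per kb, from 46.0 in WT, which placed it beside Dnajb11 with overlap. In kFRA, Sil1 stood at 83.0 CPM per kb and shared the last place with Dnajb9. Merged exons include untranslated and alternative parts, so the order depends on the annotation.

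Among 2572 genes with a mean of at least 50 CPM and other than immunoglobulin, Hyou1 followed Hspa5 most closely over the 9 libraries. The measure was the root mean square difference of log2 CPM, each gene centred on its own mean, and it was 0.114 for Hyou1 beside a median of 0.549 over all these genes. Among the next were Trabd (0.154), Cdk5rap3 (0.156), Srp68 (0.165), Syvn1 (0.176), Srprb (0.196) and Ppp1r15a (0.197). Srp68 and Srprb act in the targeting of nascent chains to the ER, and Syvn1 is a ubiquitin ligase of ER-associated degradation. Trabd had means of 184, 183.5 and 324 CPM in WT, DH-LMP2A and kFRA, and Syvn1 had 384, 353 and 661 CPM. Of the BiP partners, Dnajc3 ranked 15, Dnajb9 41, Creld2 64, Dnajb11 89, Manf 161, Sdf2l1 514, Hsp90b1 814 and Sil1 1992. The libraries share genotype and depth, so these ranks describe the 9 libraries. Exons of Trabd, Cdk5rap3, Syvn1, Srprb and Ppp1r15a overlap those of other genes.

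Beyond the 10 genes, 19 further partners of the BiP and GRP94 cycle were tested, other J-domain proteins, paralogs, regulators and retrieval receptors. Against WT, 4 rose in kFRA and none fell (median log2 fold change 0.371), and 4 rose and 1 fell in DH-LMP2A (median 0.217). Over all genes 6.68% rose and 11.1% fell in the first comparison, and 5.07% and 7.3% in the second. In kFRA against DH-LMP2A 0 passed with edgeR (median 0.137), beside 1.73% higher and 3.3% lower over all genes. At an unadjusted p under 0.05, 3 were higher and 2 lower, beside 10.3% and 12.1% of all genes. With DESeq2 1 rose, beside 4.16% of all genes. Mzb1, a plasma cell protein that works with BiP and GRP94 in antibody assembly, had 1059 ± 294, 3694 ± 397 and 2473 ± 405 CPM in WT, DH-LMP2A and kFRA. It rose by a log2 of 1.8 in DH-LMP2A (SE 0.254, edgeR adjusted p = 0.0021) and 1.22 in kFRA (SE 0.25, edgeR adjusted p = 0.0107), although 695 of its exon bases overlap another gene on its strand. Os9, a lectin of ER-associated degradation that binds GRP94, had 340.5 ± 51.6, 692 ± 65.7 and 510.0 ± 44.0 CPM in the same order and rose in both (edgeR adjusted p = 0.00424 and 0.0392). Kdelr1, a receptor that returns BiP to the ER, rose in kFRA by a log2 of 0.96 (SE 0.216, edgeR adjusted p = 0.0157), and its value in DH-LMP2A was 0.47 (SE 0.214, edgeR adjusted p = 0.201). Its paralog Kdelr3 had 12.2 ± 4.45, 2.4 ± 0.705 and 6.0 ± 1.98 CPM and fell in DH-LMP2A by a log2 of -2.34 (SE 0.362, edgeR adjusted p = 0.00333). The count of 4 rising in kFRA against WT was 1 without kFRA 1, WT 1 or WT 2, 2 without kFRA 3, 10 without kFRA 2 and 0 with the erythroid or B cell covariate. In DH-LMP2A it was 2 without DH-LMP2A 1 or WT 2 and 0 with the erythroid covariate. Calls over all genes in these fits are not set beside the counts, so a change particular to the list was not tested.

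Of 23 other ER folding enzymes and lectins tested, 11 rose and 2 fell in kFRA against WT (median log2 fold change 0.604), and 10 rose and none fell in DH-LMP2A (median 0.607). The shares of all genes were 6.68% rising and 11.1% falling in kFRA, and 5.07% and 7.3% in DH-LMP2A. In kFRA against DH-LMP2A they were 1.73% and 3.3%. Ero1lb, an oxidase that recharges disulfide isomerases, rose by a log2 of 1.04 in kFRA (SE 0.166, edgeR adjusted p = 0.00336) and 1.09 in DH-LMP2A (SE 0.166, edgeR adjusted p = 0.00315). In kFRA against DH-LMP2A 1 gene passed with edgeR, Txndc5, a disulfide isomerase of the same compartment, and it fell (median of the list -0.238). It had 2831 ± 553, 2657 ± 187 and 1234 ± 181 CPM in WT, DH-LMP2A and kFRA, a log2 change in kFRA of -1.11 against DH-LMP2A (SE 0.218, edgeR adjusted p = 0.0206) and -1.2 against WT (SE 0.219, edgeR adjusted p = 0.00634). Txndc5 thus moved against the direction of Hspa5 in the same bulk libraries, and 341 of its exon bases overlap 2 other genes. In the list 0 fell without any 1 of DH-LMP2A 1, 2 and 3, kFRA 1 and kFRA 3, and with the covariates of other spleen cells, erythroid or B cell markers. The count rising in kFRA against WT was 5 without WT 2, 6 without kFRA 1 and 7 without WT 1 or kFRA 3. That in DH-LMP2A was 6 without DH-LMP2A 1, WT 1 or WT 2, and both were 0 with the erythroid covariate. Calls over all genes in these fits are not set beside the counts, so a change particular to the list was not tested.

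Among 12 sensors and factors of the unfolded protein response, 2 rose and none fell in kFRA against WT (median 0.376), and 2 rose and none fell in DH-LMP2A (median 0.279). The shares of all genes were 6.68% rising and 11.1% falling in kFRA, and 5.07% and 7.3% in DH-LMP2A. In kFRA against DH-LMP2A they were 1.73% and 3.3% with edgeR, and 4.16% and 5.74% with DESeq2. In kFRA against DH-LMP2A 1 passed with edgeR, Ddit3, encoding CHOP (median -0.061), and 2 rose and 1 fell with DESeq2. It had 20 ± 3.54, 21.5 ± 4.45 and 43.1 ± 8.52 CPM in WT, DH-LMP2A and kFRA, a log2 rise of 1.0 against DH-LMP2A (SE 0.212, edgeR adjusted p = 0.0278) and 1.11 against WT (SE 0.213, edgeR adjusted p = 0.00788). Ppp1r15a, encoding the GADD34 subunit of the eIF2-alpha phosphatase, rose against WT by 0.72 (SE 0.202, edgeR adjusted p = 0.0375), and its value against DH-LMP2A was 0.68 (SE 0.202, edgeR adjusted p = 0.0955). Mbtps1, the protease that activates ATF6, rose in DH-LMP2A by 0.43 against WT (SE 0.115, edgeR adjusted p = 0.0416) and had a value of 0.01 in kFRA (SE 0.115, edgeR adjusted p = 0.968). Exons of Ddit3 overlap those of other genes over 81 bases. The count of genes rising against DH-LMP2A was 0 without DH-LMP2A 1, DH-LMP2A 2, kFRA 1 or kFRA 3 and with only the 6 libraries compared, and 3 without kFRA 2. It was also 0 with the covariates of other spleen cells, erythroid markers, B cell markers and Xist. In kFRA against WT it was 1 to 5 when each library was left out, and in DH-LMP2A against WT 0 to 3. Both were 0 with the erythroid or the B cell covariate. Calls over all genes in these fits are not set beside the counts, so a change particular to the list was not tested.

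Chaperones of the cytosol and mitochondria had medians near 0 in all 3 comparisons. Of 28 tested, 1 rose and 2 fell in kFRA against WT (median -0.048), and 2 fell and none rose in DH-LMP2A against WT (median 0.03). None of these is a larger share than that of all genes, 6.68% and 11.1% in kFRA and 5.07% and 7.3% in DH-LMP2A. Between kFRA and DH-LMP2A 0 passed with edgeR or DESeq2 (median -0.017). There 1 was higher and 4 were lower at an unadjusted p under 0.05, beside 10.3% and 12.1% of all genes. The small heat shock protein gene Hspb1 fell by a log2 of -2.39 in kFRA (SE 0.353, edgeR adjusted p = 0.00218) and -1.38 in DH-LMP2A (SE 0.32, edgeR adjusted p = 0.0219). It was low, at 2.32 ± 0.46, 0.885 ± 0.144 and 0.447 ± 0.165 CPM in WT, DH-LMP2A and kFRA, near the floor of 0.139 to 0.194 CPM. Bag3, a co-chaperone of cytosolic Hsp70, fell by -0.89 in kFRA (SE 0.23, edgeR adjusted p = 0.0278) and -1.26 in DH-LMP2A (SE 0.231, edgeR adjusted p = 0.00774). Without kFRA 2 the counts were 7 rising and 3 falling against WT and 3 rising and 2 falling against DH-LMP2A. In that fit 3299 of all 14518 genes tested passed against DH-LMP2A, a larger share than in the list. When each library was left out, 0 to 7 rose and 1 to 4 fell in kFRA against WT. Calls over all genes are not set beside those counts. Library size alone moved the median of all genes to 0.17 and 0.33, and 6 rose in kFRA and 7 in DH-LMP2A. With that setting 3280 and 2571 of all genes passed, beside 2523 and 1756 as reported.

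The count of 8 genes in kFRA against WT depended on which libraries were in the fit. It was 0 without WT 2, 1 without kFRA 1, 2 without WT 1 and 3 without kFRA 3, and it was 9 without kFRA 2 or WT 3, while Sil1 passed in 8, Creld2 in 7, Hsp90b1 in 6, Hyou1, Dnajc3, Sdf2l1 and Manf in 5 and Hspa5 in 2 of the 9 such fits. In DH-LMP2A against WT the count of 3 was 1 without DH-LMP2A 1, WT 1 or WT 2, and between kFRA and DH-LMP2A the count of 0 was 4 without kFRA 2, namely Hspa5, Hyou1, Creld2 and Manf, in the fit where calls rose over all genes from 713 to 3299. The order of the counts against WT also turned: without WT 2 it was 0 for kFRA and 1 for DH-LMP2A, and without kFRA 1 it was 1 and 2. Each such fit tests every gene with fewer libraries. Apart from the fit without kFRA 2, calls over all genes are not set beside these counts. A loss particular to these genes was not tested. With the level of the erythroid markers as a covariate the counts against WT were 0 for both genotypes, and with that of the B cell markers they were 0 for kFRA and 1 for DH-LMP2A. The erythroid sums separated WT from both other genotypes, so a fit with that covariate can hardly tell it from the genotype. Its counts of 0 do not decide whether these genes changed, and calls over all genes are not set beside the counts of either covariate. In kFRA against WT the log2 fold changes stayed positive in every alternative fit. The lowest were 0.05 for Dnajb9, 0.33 for Dnajb11 and 0.45 for Hspa5 and for Hyou1. In DH-LMP2A against WT those of Hspa5 and Dnajb9 changed sign in some fits.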

How the data were processed

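Counts per gene were deposited by the authors as raw, not normalized, read counts, per the file headers, which have the layout of featureCounts. The submitters' processing notes name STAR 2.4.0a, featureCounts, Subread 1.5.0-p3, DESeq2 and the builds mm10 and GRCm38. Libraries came from polyadenylated RNA with a stranded kit, per the labels' protocols. The strand setting and the handling of multi-mapping reads are not given in the sources used here, so genes that share exon bases with another gene are uncertain. All 9 columns were used, and replicate numbers come from the sample titles.

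R 4.3.3 and edgeR 4.0.16 were used for the tests. Low genes were removed by filterByExpr, libraries were scaled by TMM, and 1 quasi-likelihood model was fitted to all 9 libraries with a coefficient per genotype. The 3 contrasts were tested 2-sided and adjusted by the Benjamini-Hochberg method over 14199 genes, with 0.05 as the threshold. The model was tested on simulated data. Replicates differed by more than sampling noise. Alternatives were DESeq2 1.42.0, other scalings and filters, no immunoglobulin genes, covariates, the replicate block and leaving out each library. Ratios, ranges and figures were made with Python 3.11.15, pandas 2.3.3, scipy 1.17.1 and matplotlib 3.10.9. Overlaps of exons were read from GENCODE M21 and promoters from RefSeq tables.

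The members and the gene lists were chosen with earlier results of these data known. All 10 members are described, and of each other list the 2 genes with the smallest p-value in kFRA against DH-LMP2A and the 2 in kFRA against WT could be named. Of the list of 25 ER folding enzymes, 24 were in the table. Of the 8 genes most like Hspa5 by the rule, 1 is not reported here. The covariates of erythroid markers, B cell markers and Xist were added after seeing the data.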

Additional observations from a re-analysis of the deposited data

How the results depend on the processing

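The number of the 10 genes past the threshold depended on the settings. In kFRA against DH-LMP2A, 0 as reported, it was 1 with library size alone, 1 without the filter and 1 with the replicate block (Sil1 in each). There 488, 806 and 685 of all genes passed, beside 713 as reported. The number was 4 with DESeq2 and 0 to 4 when each library was left out. In kFRA against WT, 8 as reported, it was 3 with the covariate of other spleen cells' markers, where 1874 of all genes passed, beside 2523 as reported. It was 3 with only the 6 libraries compared, and 0 to 9 when each library was left out. With the covariates added after seeing the data it was 0 (erythroid), 0 (B cell) and 5 (Xist). The first of these covariates can hardly be told apart from the contrast with WT. Calls over all genes are not set beside the counts for the added covariates, the 6 libraries compared and the left-out libraries. A loss particular to the 10 genes was not tested. In DH-LMP2A against WT, 3 as reported, the number was 6 with library size alone, where 2571 of all genes passed, beside 1756 as reported. It was 1 with the marker covariate (887 of all genes), 0 (erythroid), 1 (B cell) and 1 to 3 when each library was left out. Library size alone moved the median of all genes to -0.14, 0.17 and 0.33 in kFRA against DH-LMP2A, kFRA against WT and DH-LMP2A against WT. Of the ratios to Hspa5 in kFRA against WT, 1 to 4 did not overlap when each library was left out.

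Some log2 fold changes near 0 changed sign. Hsp90b1 in kFRA against DH-LMP2A was 0.01 with DESeq2's size factors, 0.02 without immunoglobulin genes, 0.01 with DESeq2's Wald test, 0.02 with Xist and -0.09 to 0.20 when each library was left out. Sdf2l1 was 0.02, 0.03, 0.02 by the first 3 of these, 0.12 with the marker covariate, 0.10 with the erythroid one and -0.11 to 0.16 when each library was left out. Dnajb11 was -0.02 with the B cell covariate. In DH-LMP2A against WT, Hspa5 was -0.15 with the erythroid and -0.05 with the B cell covariate and -0.13 to 0.33 when each library was left out, and Dnajb9 was 0.11 with library size alone and -0.37 to 0.01 when each library was left out. The cause was not tested. The replicate numbers name different mice and did not pair the libraries: same-numbered libraries deviated with correlations of -0.211 to 0.196. With the replicate block the counts were 1, 9 and 3.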
